A study of Mus musculus with 6 samples.

Results

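Cytochrome P450 enzymes are haem proteins that insert oxygen into small molecules, and their genes carry symbols that begin with Cyp and a number. All 92 probe sets whose gene symbol begins in this way were followed in telogen dorsal skin of Bmal1-/- mice and of Bmal1+/- mice, with the probe sets of pseudogenes left out. They were 92 of the 23410 probe sets that the array annotation pairs with at least 1 gene, in a table of 35557. Of the 92, 85 name 1 gene each and 7 name several, and no Cyp gene had more than 1 probe set of its own. No filter on low values was applied, so all 92 were tested. Dorsal skin was taken from 3 Bmal1-/- mice, which lack a functional copy of the clock gene throughout the body, and from 3 Bmal1+/- littermates, which carry 1 mutant allele and 1 intact allele, so that no wild-type skin entered the comparison. All mice were on the C57BL/6J background and were staged as telogen, when hair follicles rest, at postnatal day 22 (P22). One of the 6 mice, Bmal1+/- replicate 1, was male and the other 5 were female, and one label of the male mouse gives P23 in place of P22. The RNA of each mouse was hybridised on its own array, an Affymetrix design for whole mouse transcripts.

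P450 enzymes work in a few broad settings. Members of the CYP1 to CYP4 families oxidise drugs, plant compounds, fatty acids and arachidonic acid, and many of these genes are best known from liver, where in mice the circadian clock acts on them through DBP, TEF and HLF, the PAR bZIP transcription factors. Other members make or break down signals that skin responds to, such as retinoic acid, vitamin D, steroid hormones and oxysterols, or build the lipids of the epidermal barrier. The comparison asked which of these genes differed in level between Bmal1-/- skin and Bmal1+/- skin.

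Values are linear intensities of probe sets, and every difference is the mean of log2(intensity + 16) in Bmal1-/- skin minus that in Bmal1+/- skin, tested with limma across all 23410 probe sets. A probe set was called lower or higher at an adjusted p under 0.05. The offset of 16 understates the change of dim probe sets, and the number of arrays limits the precision. The median intensity of an array lay between 219 and 235.5. Bmal1, the targeted gene, goes by the symbol Arntl on the array (probe set 10556463) and had 569, 610 and 664 in Bmal1-/- mice, against 325, 365 and 355 in Bmal1+/- mice. The sources used here do not say whether its probes fall inside the deletion, and its level is therefore no check of genotype. Dbp, a direct target of CLOCK/BMAL1, had 209.9, 221 and 221 in Bmal1-/- mice, against 1378, 1536 and 1148 in Bmal1+/- mice. Keratinocyte, sebocyte, fibroblast and adipocyte markers were measured in all 6 arrays, and none of the markers of 10 cell types was called at an adjusted p under 0.05. At an unadjusted p under 0.001, 2 of them were lower, the melanocyte genes Dct and Tyrp1.

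In Bmal1-/- skin, 2 of the 92 P450 probe sets were called lower, Cyp2f2 and Cyp2b10, and 0 were called higher. Among all probe sets tested, 0.132% were called lower and 0.0982% were called higher. At an unadjusted limma p under 0.001, the threshold that the study's methods name, the same 2 genes were lower, beside 0.397% of all probe sets. 1 P450 gene, Cyp2d22, was higher at that threshold, beside 0.252% of all probe sets. At an unadjusted p under 0.05, 8 P450 probe sets (8.7%) were lower and 7 (7.61%) were higher, against 4.6% and 4.17% of all probe sets. Most of the family had fold changes near 0. The median log2 fold change of the 92 was 0.03 (-0.0091 to 0.083 with 1 array left out), against 0.01 for all probe sets, and 39 (42.4%) lay below 0, against 45.3%. For 74 of the 92 (80.4%) the log2 fold change was within 0.25 of 0, against 92.1% of all probe sets. P450 probe sets were often dim, with a mean intensity under 64 in 31 of them (33.7%), against 13% of all probe sets. The 7 probe sets that name several genes had log2 fold changes between -0.25 and 0.18, and 0 of them were called.

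**Figure D1:**
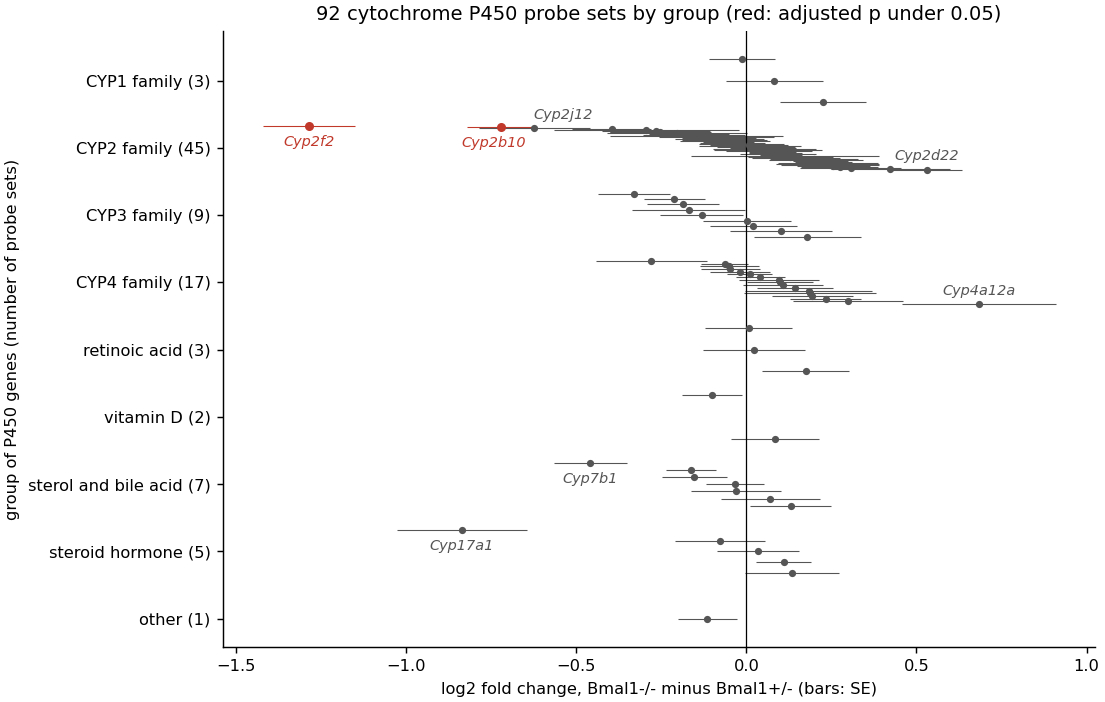
Log2 fold change of each of the 92 P450 probe sets, Bmal1-/- minus Bmal1+/- (x axis), by group of P450 genes (y axis, number of probe sets in parentheses), with bars for the SE and red for an adjusted p under 0.05 from limma. Cyp2f2 at -1.29 and Cyp2b10 at -0.72 are the 2 called probe sets, while most points lie near 0.

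Cyp2f2 had the lowest log2 fold change of the family. It encodes an enzyme best known from mouse airway, where it turns naphthalene into a toxic epoxide. Its probe set (10551293) had intensities of 269, 401 and 379 in Bmal1-/- mice, against 905, 775 and 917 in Bmal1+/- mice. Every Bmal1-/- mouse was far below every Bmal1+/- mouse, with Bmal1-/- replicate 1 the lowest. The mean was 349.6 ± 70.8 in Bmal1-/- skin and 866 ± 79.1 in Bmal1+/- skin (± SD over 3 mice of each genotype), 2.48-fold lower in Bmal1-/- skin, with a log2 fold change of -1.29 (SE 0.14, limma adjusted p = 0.00506). The call held under all 19 alternative settings of the fit, with adjusted p between 1.31e-07 and 0.038 and a log2 fold change between -1.39 and -1.11. Because whole skin was measured, fewer cells of a type and less RNA per cell cannot be told apart, here and for every other gene.

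Cyp2b10 was the other called gene. In mouse liver it is the classic gene induced by phenobarbital, through the constitutive androstane receptor. Its probe set (10551197) had intensities of 471, 596 and 626 in Bmal1-/- mice, against 954, 888 and 962 in Bmal1+/- mice. The genotypes did not overlap, and the gap between them was wider than the range within either. The mean was 564 ± 82.7 in Bmal1-/- skin and 934 ± 40.3 in Bmal1+/- skin, 1.66-fold lower in Bmal1-/- skin, with a log2 fold change of -0.72 (SE 0.10, limma adjusted p = 0.0232). This call was lost under 6 of 19 settings. Without Bmal1+/- replicate 1, 2 or 3 the adjusted p was 0.109, 0.0619 and 0.109, with a term for sex it was 0.108, over all rows tested together 0.108, and without a variance trend 0.109, while the log2 fold change stayed between -0.80 and -0.60.

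Cyp2f2 and Cyp2b10 lie in the same stretch of Cyp2 genes on mouse chromosome 7, as does Cyp2b9, a close relative of Cyp2b10 whose level in mouse liver is higher in females. Cyp2b9 had intensities of 136, 162 and 189 in Bmal1-/- mice, against 209, 209.6 and 232 in Bmal1+/- mice, with no overlap. Its log2 fold change was -0.40 (SE 0.12), at an unadjusted p of 0.00703 and an adjusted p of 0.336 from limma, so it was not called. The bases before the start of these 3 genes are shown because the 3 share a stretch and had the lowest log2 fold changes in it. Cyp2t4 (-0.17) and Cyp2a12 (-0.06) of the same stretch also lay below 0 and are not shown. Each is the 250 bases upstream of the RefSeq start on the plus strand of GRCm38.p6, at chr7:27119705-27119954 for Cyp2f2, chr7:25897408-25897657 for Cyp2b10 and chr7:26173159-26173408 for Cyp2b9. Capitals mark matches to the searched motifs.
Cyp2f2: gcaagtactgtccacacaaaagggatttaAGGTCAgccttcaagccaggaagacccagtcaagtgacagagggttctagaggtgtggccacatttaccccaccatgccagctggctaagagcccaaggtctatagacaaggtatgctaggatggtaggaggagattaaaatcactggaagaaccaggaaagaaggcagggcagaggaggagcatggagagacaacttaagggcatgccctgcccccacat
Cyp2b10: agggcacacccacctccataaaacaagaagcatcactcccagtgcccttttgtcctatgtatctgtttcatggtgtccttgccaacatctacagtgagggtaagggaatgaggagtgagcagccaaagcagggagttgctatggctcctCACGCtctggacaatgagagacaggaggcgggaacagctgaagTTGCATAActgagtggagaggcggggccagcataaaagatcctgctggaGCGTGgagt
Cyp2b9: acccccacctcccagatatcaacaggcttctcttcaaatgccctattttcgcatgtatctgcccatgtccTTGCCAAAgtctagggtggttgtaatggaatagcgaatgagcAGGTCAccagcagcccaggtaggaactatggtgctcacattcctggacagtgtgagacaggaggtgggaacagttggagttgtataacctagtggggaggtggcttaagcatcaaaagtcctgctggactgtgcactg

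6 motifs were searched on both strands of these windows and of all 32851 RefSeq promoter windows of 250 bases. Shares for P450s are counted over the 64 P450 genes that have a window and a probe set of their own. Shares for all are counted over windows. The E-box CACGTG and the E'-box CACGTT, letters that CLOCK/BMAL1 is known to bind, and the D-box TTANGTAA, letters of the PAR bZIP factors, had no match in the 3 windows. Over all windows they were found in 6.02%, 3.85% and 2.06%, and each was found before 1 of the 64 P450 genes (1.56%). The recognition letters of nuclear receptors, AGGTCA, had a match 221 to 216 bases before the start of Cyp2f2 and 138 to 133 bases before that of Cyp2b9. They were found before 23.4% of P450 genes, against 14.0% of all windows. TTGCNNAA, a form of the C/EBP box that was added after the sequences had been read, had a match 58 to 51 bases before Cyp2b10 and 180 to 173 bases before Cyp2b9. It was found before 12 P450 genes (18.8%), Cyp2b10 and Cyp2b9 among them, against 9.56% of all windows. Because this motif was added after reading those sequences, the shares are no test of enrichment. The core GCGTG of the element bound by the aryl hydrocarbon receptor had 2 matches before Cyp2b10, the nearer at 9 to 5 bases on the plus strand and the other on the minus strand. This core was found before 23.4% of P450 genes, against 28.2% of all windows. A match is a run of letters and not a measured site. Aligned end to end, the Cyp2b10 and Cyp2b9 windows had the same base in 182 of 260 columns (70.0%), while Cyp2f2 shared 47.0% with Cyp2b10 and 47.8% with Cyp2b9.

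The stretch on chromosome 7 holds 11 P450 genes that have their own probe set, and its members differed in direction. 2 were called lower, 5 had log2 fold changes below 0 and 6 above 0. Between Cyp2b10 and Cyp2f2 lie 32 annotated genes, 7 of them P450 genes that have their own probe set, and of these 7 none was called. One of them, Cyp2b19, the keratinocyte epoxygenase of arachidonic acid in mouse epidermis, had intensities of 1111, 1156 and 1213 in Bmal1-/- mice, against 919, 934 and 1127 in Bmal1+/- mice. Its log2 fold change of 0.23 had an adjusted p of 0.473 from limma, and the genotypes overlapped. Another, Cyp2g1, known from olfactory mucosa, varied widely within each genotype, with 3080, 5513 and 5607 in Bmal1-/- mice, against 3133, 3729 and 6427 in Bmal1+/- mice, and the sign of its log2 fold change of 0.11 (SE 0.28) turned under 4 of 19 settings. The 4 probe sets of genes other than P450s in the stretch had log2 fold changes between 0.02 and 0.31, and 0 of them were called. Bmal1 itself also lies on chromosome 7, with 2332 annotated genes between it and Cyp2f2.

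**Figure D2:**
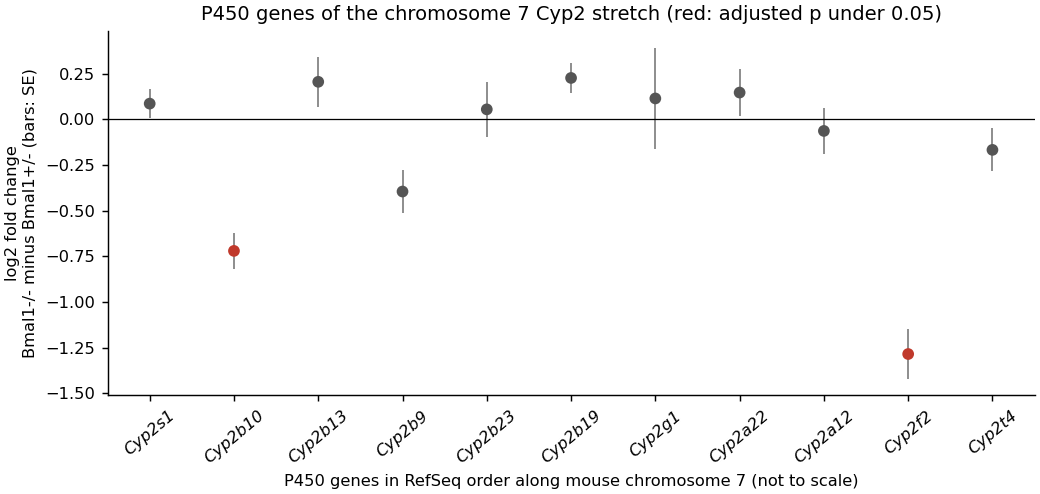
Log2 fold change, Bmal1-/- minus Bmal1+/- (y axis, bars for the SE), of the 11 P450 genes of the chromosome 7 stretch in RefSeq order (x axis, not to scale), with red for an adjusted p under 0.05 from limma. Cyp2f2 and Cyp2b10 stand below the rest, and genes between them lie on either side of 0.

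The other Cyp2 genes gave no call. Of the 45 Cyp2 probe sets, counted without Cyp2r1, which stands with the vitamin D enzymes, 43 did not pass, and the median log2 fold change was 0.05. Cyp2d22, a mouse gene of the subfamily of human CYP2D6, had the smallest p among P450 genes that were higher in Bmal1-/- skin. Its intensities were 563, 508 and 634 in Bmal1-/- mice, against 339, 409 and 416 in Bmal1+/- mice, and every Bmal1-/- mouse was above every Bmal1+/- mouse. The log2 fold change was 0.53 (SE 0.10), at an unadjusted p of 0.000511 and an adjusted p of 0.115 from limma. It passed with a regularised test built after Cyber-T, the program the study's methods name (adjusted p = 0.00402), and over the 19 settings its adjusted p ran from that value to 0.298. The other 8 genes of the Cyp2d stretch on chromosome 15 had lower log2 fold changes, down to -0.29 for Cyp2d11, and 6 of the 9 lay below 0.

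Cyp2j12 belongs to a subfamily whose known members form epoxides of arachidonic acid. It had 148, 228 and 256 in Bmal1-/- mice, against 331, 343 and 305 in Bmal1+/- mice. The genotypes did not overlap, and Bmal1-/- replicate 1 lay well under the other two. Its log2 fold change was -0.62 (SE 0.16, limma adjusted p = 0.269, and 0.0121 with the Cyber-T type test), and -0.41 without Bmal1-/- replicate 1. The other 5 Cyp2j genes on chromosome 4 all had log2 fold changes above 0, with 0.10 for Cyp2j6 the highest. Among the 13 Cyp2c genes on chromosome 19, 10 lay above 0 and 3 below 0, while 45.3% of all probe sets lay below 0. Past an unadjusted p of 0.05 were 3, all higher in Bmal1-/- skin, where 4.17% of all probe sets were higher at that p. Their adjusted p was 0.529 to 0.548 from limma. These were Cyp2c67 (log2 fold change 0.42), Cyp2c70 (0.27), which makes muricholic acids in mouse liver, and Cyp2c54 (0.26). Their mean intensities were low, at 34.9, 74.4 and 49.2, and the genotypes overlapped for Cyp2c67. A probe set that Cyp2c67 shares with other Cyp2c genes had a log2 fold change of -0.06 at a mean intensity of 47.4. With an offset of 64 the log2 fold changes of Cyp2c67, Cyp2c70 and Cyp2c54 were 0.22, 0.18 and 0.15. After quantile normalization they were 0.34, 0.20 and 0.17, and without Bmal1-/- replicate 1 Cyp2c67 had 0.27. Cyp2c66 had a log2 fold change of 0.31 at an adjusted p of 0.6, and of 0.14 without Bmal1+/- replicate 2. Cyp2w1 had 231, 216 and 206 in Bmal1-/- mice, against 187, 187 and 181 in Bmal1+/- mice, without overlap, for a log2 fold change of 0.22 (adjusted p = 0.48 from limma). Cyp2e1, which oxidises ethanol and acetone, had 567, 607 and 1189 in Bmal1-/- mice, against 847, 1020 and 648 in Bmal1+/- mice. These values overlapped widely, with Bmal1-/- replicate 3 the highest of the 6, and the log2 fold change of -0.15 (SE 0.25) turned its sign when Bmal1-/- replicate 1 or Bmal1+/- replicate 2 was left out.

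**Figure D3:**
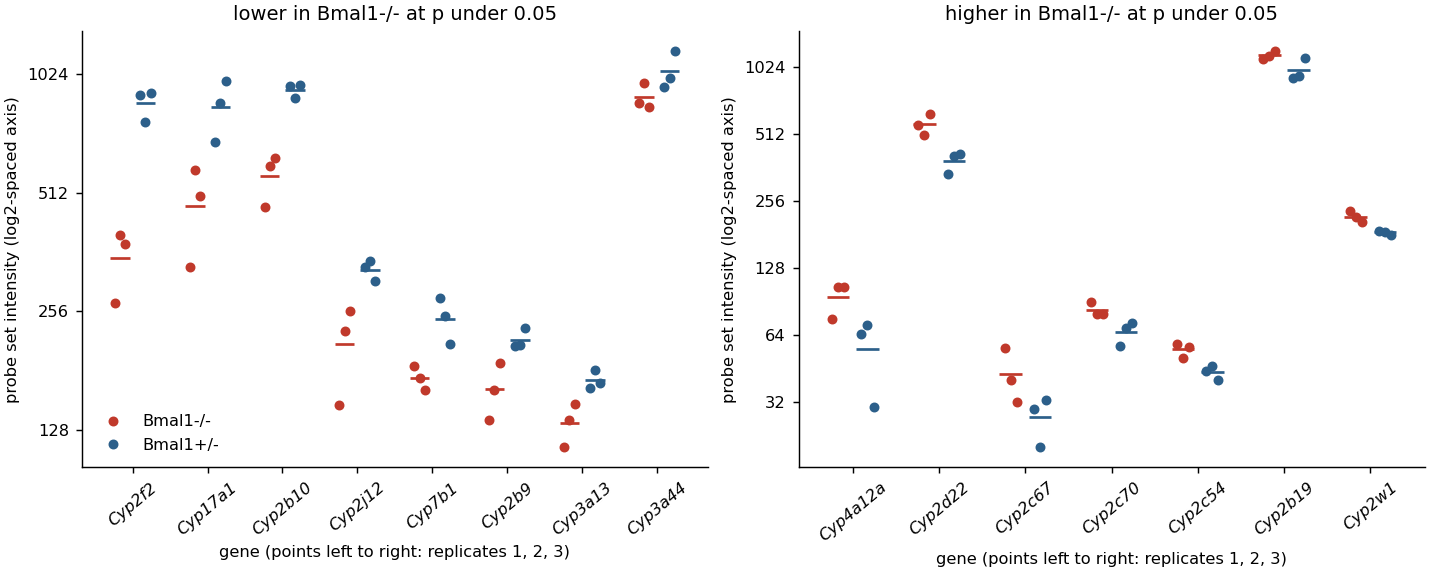
Probe set intensity in each mouse (y axis, log2-spaced) for the 8 P450 genes lower and the 7 higher in Bmal1-/- skin at an unadjusted limma p under 0.05, with red points for Bmal1-/-, blue points for Bmal1+/-, replicates 1 to 3 running left to right and a bar at the mean. Cyp2f2, Cyp2b10, Cyp17a1 and Cyp2d22 show genotypes that do not overlap, while Cyp3a44, Cyp2c67 and Cyp2b19 overlap.

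The families that act on drugs, fatty acids and eicosanoids outside CYP2 had 0 calls. The 3 CYP1 genes are induced through the aryl hydrocarbon receptor. Cyp1a1 had 277, 344 and 330 in Bmal1-/- mice, against 293, 337 and 329 in Bmal1+/- mice, a log2 fold change of -0.01 (SE 0.10) whose sign depended on the setting. Cyp1b1 had 757, 842 and 1026 in Bmal1-/- mice, against 644, 729 and 865 in Bmal1+/- mice, with overlap and a log2 fold change of 0.22 (adjusted p = 0.654 from limma), or 0.11 without Bmal1-/- replicate 3 and 0.13 without Bmal1+/- replicate 1. Of the 9 probe sets of the CYP3 family, whose enzymes oxidise drugs and steroids, 2 were lower at an unadjusted p under 0.05. Cyp3a13 had 115, 136 and 149 in Bmal1-/- mice, against 163, 182 and 168 in Bmal1+/- mice, without overlap (log2 fold change -0.33, SE 0.11, adjusted p = 0.402 from limma). Cyp3a44 had a log2 fold change of -0.21 with overlapping genotypes (limma adjusted p = 0.543), or -0.12 without Bmal1+/- replicate 3. The 2 probe sets it shares with other Cyp3a genes had 0.10 and 0.18. Their mean intensities were only 28.4 and 29.9, against 967 for its own probe set. Probes of near-identical Cyp genes can bind each other's transcripts, so that values within the Cyp2b, Cyp2c, Cyp2d, Cyp3a and Cyp4a subfamilies are uncertain as to gene. Cyp3a57 had a log2 fold change of -0.13 (SE 0.12).

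The 17 CYP4 probe sets belong to enzymes that oxidise the far end of fatty acids and eicosanoids. Their median log2 fold change was 0.10, and 1 was past an unadjusted p of 0.05. Cyp4a12a, a gene induced by androgen in mouse kidney, had the highest log2 fold change among the 92 as fitted here. It had 75.4, 105 and 105 in Bmal1-/- mice, against 64.7, 70.7 and 30.2 in Bmal1+/- mice, so that every Bmal1-/- mouse was above every Bmal1+/- mouse, and the lowest value, in Bmal1+/- replicate 3, stood apart from the other two. The log2 fold change was 0.68 (SE 0.23, limma adjusted p = 0.417). It was 0.40 without Bmal1+/- replicate 3 and 0.43 with an offset of 64, settings in which Cyp2d22 had 0.58 and 0.48 and stood above it. Its near-identical neighbour Cyp4a12b had 0.19 with overlapping genotypes. Cyp4f39, the mouse counterpart of the human enzyme that makes the very long hydroxylated lipids of the skin barrier, had 1422, 1656 and 1537 in Bmal1-/- mice, against 1523, 1481 and 1572 in Bmal1+/- mice. These values lay close together, with a log2 fold change of 0.01 (SE 0.07) whose sign turned when Bmal1-/- replicate 2 or Bmal1+/- replicate 2 was left out. Cyp4b1, which oxidises fatty acids and activates plant toxins, had a log2 fold change of -0.06 (SE 0.07).

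Among P450 genes of steroid, sterol, retinoid and vitamin D metabolism, 0 of 17 probe sets were called, and 2 were past an unadjusted p of 0.05, both lower. Cyp17a1, the hydroxylase and lyase that leads from progestogens to androgens, had 331, 586 and 502 in Bmal1-/- mice, against 687, 862 and 980 in Bmal1+/- mice. The genotypes did not overlap, and the spread within each was wide. The mean was 473 ± 130 in Bmal1-/- skin and 843 ± 147 in Bmal1+/- skin (± SD over 3 mice of each genotype). This was a log2 fold change of -0.84 (SE 0.19) with an adjusted p of 0.19 from limma. Over the alternatives its adjusted p ran from 0.00393, with the Cyber-T type test, to 0.438. Cyp11a1, which makes pregnenolone from cholesterol in the first step of steroid synthesis, had 207, 229 and 225 in Bmal1-/- mice, against 204, 209 and 197 in Bmal1+/- mice, a log2 fold change of 0.11 (SE 0.08).

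Cyp7b1 hydroxylates oxysterols and some steroids. It had 185, 174 and 161 in Bmal1-/- mice, against 276, 248 and 211 in Bmal1+/- mice, without overlap. The log2 fold change was -0.46 (SE 0.11, limma adjusted p = 0.204, and 0.0375 with the Cyber-T type test). Cyp39a1, which acts on another oxysterol, had 632, 721 and 734 in Bmal1-/- mice, against 805, 784 and 748 in Bmal1+/- mice, a narrow separation with a log2 fold change of -0.16 (SE 0.07, limma adjusted p = 0.582). Cyp51, the lanosterol demethylase of cholesterol synthesis, had 1144, 1044 and 969 in Bmal1-/- mice, against 1349, 1091 and 1086 in Bmal1+/- mice, with overlap and a log2 fold change of -0.15 (SE 0.10, limma adjusted p = 0.681). The other 4 sterol and bile acid genes had log2 fold changes between -0.03 and 0.13.

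Cyp26b1, which degrades retinoic acid, had 575, 500.2 and 651 in Bmal1-/- mice, against 508, 525 and 692 in Bmal1+/- mice, and its log2 fold change of 0.01 (SE 0.13) turned its sign under 4 of 19 settings. Cyp26c1, a relative with the same substrate, had a log2 fold change of 0.17 (SE 0.13). Of the vitamin D enzymes, Cyp27b1, which makes the active hormone, had a log2 fold change of 0.08 (SE 0.13), of the other sign after quantile normalization or without Bmal1-/- replicate 2, and Cyp2r1, which makes its precursor, had -0.10 (SE 0.09). Cyp20a1, with no settled substrate, had -0.12 (SE 0.09).

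Across the family, all 3 Bmal1-/- mice lay below all 3 Bmal1+/- mice in 10 of 92 probe sets (10.9%), against 7.68% of all probe sets, and above them in 7 (7.61%), against 6.99%. With 3 mice against 3, the smallest p that an exact two-sided permutation test of a single gene can give is 0.1. Bmal1-/- replicate 1 was the lowest of the Bmal1-/- mice in 6 of the 8 probe sets lower at an unadjusted p under 0.05, and in 47 of the 92. The same count was not made over all probe sets, so whether these numbers are particular to the family is not known. The array of this mouse also had the lowest median intensity over all tested probe sets (283.7). The other Bmal1-/- arrays had 289.1 and 290.4, and Bmal1+/- replicate 1 had 284.4. The part of the array median in these counts was not tested. Without Bmal1-/- replicate 1, Cyp2f2 and Cyp2b10 were both still called.

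**Figure D4:**
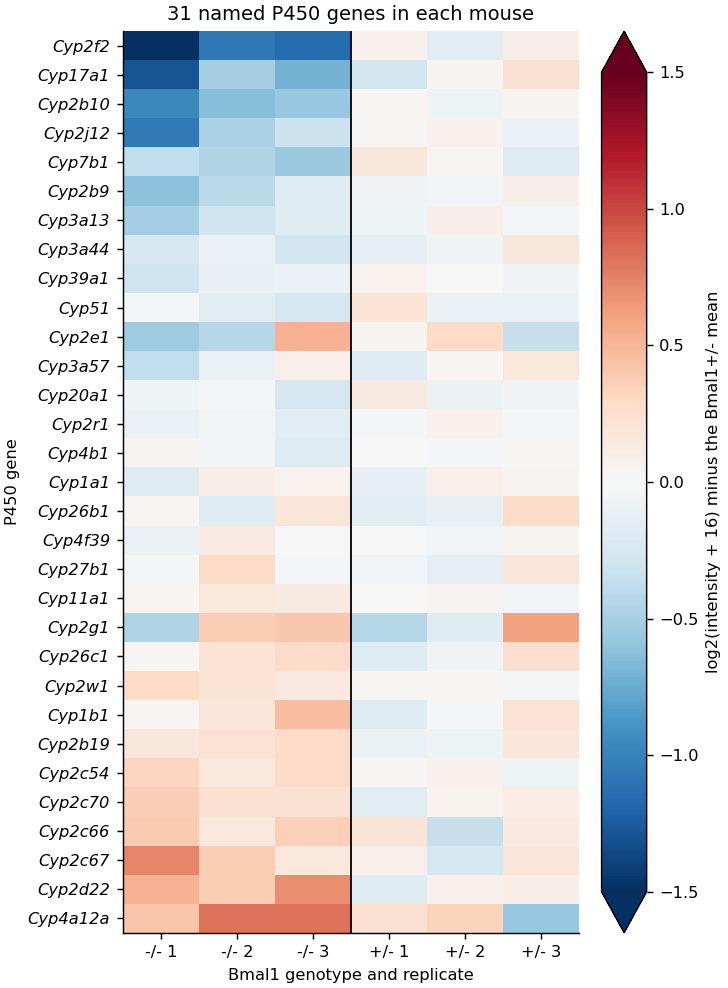
Each mouse's log2(intensity + 16) minus the mean of the Bmal1+/- mice for the 31 named P450 genes (rows, from lowest to highest log2 fold change), with the Bmal1-/- mice left of the Bmal1+/- mice and colour running from blue (lower) to red (higher). Bmal1-/- replicate 1 is the darkest blue for Cyp2f2, Cyp17a1, Cyp2b10 and Cyp2j12.

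Genes that work with P450 enzymes were examined in 5 lists. The electron carriers that feed P450 enzymes, 4 of 6 measured, had log2 fold changes between 0.03 and 0.20, and 0 were called. Fdx1, which serves mitochondrial P450 enzymes, was the highest. Por and Fdxr, the other genes of this list, had no probe set that names them alone and were not examined. The 11 of 12 measured genes that make or break down haem lay between -0.16 (Cpox) and 0.16 (Uros), with 0 called, and Alas1, the rate-limiting enzyme of haem synthesis, had -0.05 (SE 0.12). Tbxas1 and Ptgis, P450 enzymes of thromboxane and prostacyclin synthesis that carry other symbols, had -0.03 and -0.10, and neither was called. Of the receptors and partners that act on Cyp genes, 19 of 20 were measured and 0 were called. Among these, Ahr, the aryl hydrocarbon receptor, had -0.04 (SE 0.07), Nr1i3, the constitutive androstane receptor, had 0.04 (SE 0.13) and Vdr, the vitamin D receptor, had -0.14 (SE 0.07). The lowest was Esr1, an estrogen receptor, with 1034, 683 and 841 in Bmal1-/- mice, against 1180, 1250.4 and 1214 in Bmal1+/- mice, a log2 fold change of -0.52 (adjusted p = 0.209 from limma) without overlap. The fifth list held Dbp, Tef and Hlf, chosen with their fall in these samples already known. All 3 were called lower, with log2 fold changes of -2.55, -0.97 and -0.62.

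**Figure D5:**
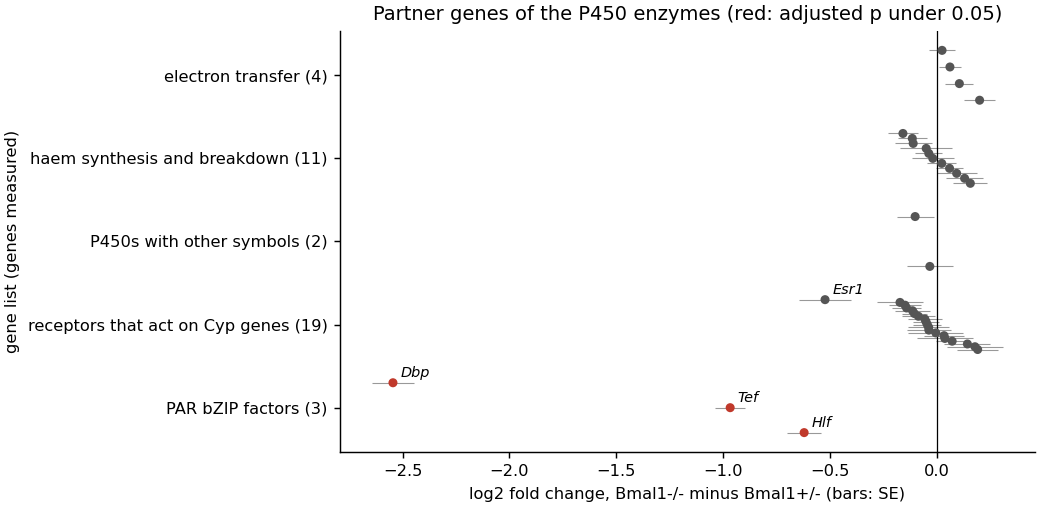
Log2 fold change, Bmal1-/- minus Bmal1+/- (x axis, bars for the SE), of genes that work with P450 enzymes, in 5 lists (y axis, number measured in parentheses), with red for an adjusted p under 0.05 from limma. Dbp, Tef and Hlf are the called genes, and Esr1 is the lowest of the receptors.

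Besides the sum of Dbp, Tef and Hlf, the summed level of the melanocyte markers was lower in every Bmal1-/- mouse than in every Bmal1+/- mouse, and stayed so without any 1 of its genes. The summed intensity of 4 of 4 melanocyte markers (Dct, Tyrp1, Pmel and Mlana) was 982 to 1168 in Bmal1-/- mice, against 1378 to 1795 in Bmal1+/- mice, with 0 of 4 called and a lowest adjusted p of 0.124 from limma. Dct and Tyrp1, enzymes of pigment synthesis, had log2 fold changes of -0.65 and -0.39 at unadjusted p of 0.000976 and 0.000654, Pmel had -0.34 and Mlana 0.03. The summed intensity of the 19 receptors was 10546 to 10759 in Bmal1-/- mice, against 10994 to 11459 in Bmal1+/- mice, a separation that rested on Esr1, since without it the sums were 9512 to 10077 in Bmal1-/- mice, against 9743 to 10245 in Bmal1+/- mice. The 4 electron carriers summed to 5444 to 5821 in Bmal1-/- mice, against 5317 to 5373 in Bmal1+/- mice, higher without overlap, and the genotypes overlapped without Fdx1. The part of these sums in the P450 values was not tested. The sums of 5 of 6 keratinocyte markers (40829 to 45773 in Bmal1-/- mice, against 43080 to 47739 in Bmal1+/- mice) and of 5 of 6 sebocyte markers (10142 to 11305 in Bmal1-/- mice, against 10404 to 10734 in Bmal1+/- mice) overlapped between genotypes. Markers of hepatocytes, 4 of 5 measured and of a cell type that skin lacks, summed to 716 to 766 in Bmal1-/- mice, against 653 to 731 in Bmal1+/- mice, and 0 were called.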

How the data were processed

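Dorsal skin RNA of 3 Bmal1-/- and 3 Bmal1+/- mice was measured on 6 arrays, grouped by the sample titles. The values the authors deposited are linear intensities, 1 per probe set and array, from PLIER 2.0 and Affymetrix Expression Console 1.1, the tools that the submitters' notes list. Background correction, normalization between arrays and genome build: not given in the sources used here. Differences were tested in R 4.3.3 by limma 3.58.1 (lmFit, then trended eBayes, two-sided) on log2(intensity + 16), without further normalization, over the 23410 probe sets with at least 1 gene symbol, with Benjamini-Hochberg adjustment. The annotation pairs 21789 probe sets with 1 gene, 1621 with several and 12147 with none. Those with several genes were tested but name no gene. Intensity also depends on the probes, so brightness served to pick named genes and count dim probe sets, not to rank RNA levels between genes.

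Named were P450 genes called, those at an unadjusted p under 0.05, the 5 highest and 5 lowest log2 fold changes among genes with a mean intensity of at least 64, the 2 brightest genes of each group and genes known for skin, 31 in all. The members, lists and rules were chosen with earlier results of these data known. The 19 alternatives changed the offset, normalization, rows tested, variance model, test, threshold, replicate block or sex term, or left out 1 array. The Cyber-T type test weighted a running SD (window 101) with a prior of 10, since the study's methods state neither. The procedure was checked on simulated data with 200 changed probe sets, whose spread was drawn around its trend over intensity. There, 49.3% of log2 changes of 0.5, 97% of those of 1 and 100% of those of 2 were called, and 6.29% of calls were false. A gene that was not called can therefore still differ by a modest amount. Gene order and promoter sequences came from RefSeq tables (GRCm38.p6), and the array's own build may differ. Python 3.11.15, Biopython 1.88 and matplotlib 3.10.9 searched sequences and drew figures. Replicates are separate mice of each genotype.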

Additional observations from a re-analysis of the deposited data

How the results depend on the processing

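Of the 31 named P450 genes, 25 kept the direction of their log2 fold change under every alternative setting they could be tested in and 6 did not. Cyp2c54 and Cyp2c67 could not be tested under the filter on a mean intensity of 64. Cyp2f2 stayed called throughout, Cyp2b10 lost its call under 6 settings, and Cyp17a1, Cyp2d22, Cyp2j12 and Cyp7b1 passed under at least 1. Over all rows 1 P450 probe set was lower, with 19 lower and 15 higher in the whole table. Without a variance trend 1 P450 probe set was lower, with 16 lower and 11 higher in all. The Cyber-T type test called 5 P450 probe sets lower and 1 higher, with 177 lower and 96 higher in all. An unadjusted p under 0.001 gave 1 higher P450 probe set, with 93 lower and 59 higher in all, and a term for sex left 1 lower P450 probe set. Leaving out 1 array gave 1 to 2 lower P450 probe sets and, among all probe sets, 13 to 23 higher. The number was 1 without Bmal1+/- replicate 1, 2 or 3. For all probe sets, the number higher was 15 without Bmal1-/- replicate 1, 13 without Bmal1-/- replicate 3 and 15 without Bmal1+/- replicate 2. Same-numbered mice deviated together with r of 0.08, -0.35 and 0.06. These deviations were taken from the mean of only 3 mice per genotype, and mice of different numbers were not set beside them. Whether the numbers pair littermates is therefore not known. A replicate block gave 3 lower P450 probe sets, the third being Cyp17a1 (adjusted p = 0.0265 from limma), with 34 lower and 20 higher in all. The sign turned with quantile normalization for Cyp1a1 (0.0015) and Cyp27b1 (-0.0035), and with a term for sex for Cyp26b1 (-0.074) and Cyp2g1 (-0.10). With 1 array left out, the log2 fold change ran from -0.072 to 0.076 for Cyp1a1, from -0.084 to 0.14 for Cyp26b1, from -0.018 to 0.18 for Cyp27b1, from -0.48 to 0.044 for Cyp2e1, from -0.10 to 0.42 for Cyp2g1 and from -0.044 to 0.064 for Cyp4f39. The cause of these changes was not tested. Since Bmal1+/- replicate 1 is the one male, a term for sex and leaving out that mouse give equal fold changes. The median log2 fold change of all probe sets stayed between 0.0024 and 0.0294 under these settings.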
